A study of Mus musculus with 6 samples.

Results

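The small heat shock protein genes of heart muscle and the co-chaperone gene Bag3 were followed in cardiomyocytes that lack the transcription factor TFEB. The 8 genes were Hspb1, Hspb2, Hspb3, Hspb6, Hspb7, Hspb8, Cryab and Bag3, taken by symbol from a deposited table of 46450 gene symbols. All 8 were present, each under a single gene ID, and all 8 passed the filter for testing, a value of 1 CPM or more in 3 or more of the 6 libraries, as did 12437 genes in all. CPM is the share of a gene in its library, scaled to a fixed total. Messenger RNA came from contractile cells isolated from hearts of C57BL/6 mice aged 3 months. There were 3 TFEB-/- libraries and 3 wild-type (WT) libraries. Neither the deleted part of Tfeb, nor a promoter or Cre line that would limit the deletion to the heart, nor whether each library was a different animal is given in the sources used here. The p-values therefore measure only the spread between these libraries.

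Small heat shock proteins hold unfolding proteins in soluble complexes without using ATP, through a shared alpha-crystallin domain, and hand them to HSP70. BAG3 binds HSP70 and, through another part of the protein, the small heat shock protein HSPB8, and so delivers damaged sarcomere proteins such as filamin C to autophagy. TFEB is a master activator of lysosomal and autophagy genes, and thus of the compartment that receives this cargo. In striated muscle many of these chaperones are constitutively abundant and sit at the Z-disc and on desmin filaments. Several are also induced by heat shock factor 1 (HSF1), which binds repeats of the sequence GAA in alternating orientation.

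The promoter windows of 5 members are printed here because each holds a pair of such repeats in the form GAANNTTC, where N is any base. The windows are from RefSeq on GRCm38.p6, run from 250 bases before to 50 bases after an annotated start site, and are written 5′ to 3′ on the strand of the gene. Capitals mark the GAANNTTC matches. The windows lie at chr13:113663627-113663926 (minus strand, Hspb3), chr5:135887669-135887968 (plus strand, Hspb1), chr7:30553051-30553350 (plus strand, Hspb6), chr5:116422815-116423114 (minus strand, Hspb8) and chr7:128523333-128523632 (plus strand, Bag3).
Hspb3: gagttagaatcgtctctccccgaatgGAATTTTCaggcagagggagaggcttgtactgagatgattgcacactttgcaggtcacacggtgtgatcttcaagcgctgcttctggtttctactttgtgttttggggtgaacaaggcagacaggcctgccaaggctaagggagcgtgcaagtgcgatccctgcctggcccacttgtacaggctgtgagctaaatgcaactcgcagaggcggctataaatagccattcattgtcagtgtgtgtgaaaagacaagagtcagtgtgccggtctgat
Hspb1: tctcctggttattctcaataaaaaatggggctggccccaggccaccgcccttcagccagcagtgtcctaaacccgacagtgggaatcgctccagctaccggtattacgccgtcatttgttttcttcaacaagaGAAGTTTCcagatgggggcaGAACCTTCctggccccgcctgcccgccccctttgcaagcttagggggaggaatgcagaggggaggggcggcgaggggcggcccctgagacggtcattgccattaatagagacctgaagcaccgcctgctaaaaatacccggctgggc
Hspb6: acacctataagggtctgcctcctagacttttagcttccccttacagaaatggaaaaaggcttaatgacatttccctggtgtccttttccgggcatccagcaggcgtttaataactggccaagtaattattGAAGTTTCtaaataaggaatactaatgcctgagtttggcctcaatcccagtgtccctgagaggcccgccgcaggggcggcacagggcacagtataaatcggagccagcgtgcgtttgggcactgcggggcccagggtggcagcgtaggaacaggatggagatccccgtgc
Hspb8: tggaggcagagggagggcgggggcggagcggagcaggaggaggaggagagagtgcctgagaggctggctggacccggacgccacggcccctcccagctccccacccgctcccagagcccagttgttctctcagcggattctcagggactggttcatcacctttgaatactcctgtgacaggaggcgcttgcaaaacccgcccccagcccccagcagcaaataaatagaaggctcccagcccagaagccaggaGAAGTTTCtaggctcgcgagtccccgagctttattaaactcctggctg
Bag3: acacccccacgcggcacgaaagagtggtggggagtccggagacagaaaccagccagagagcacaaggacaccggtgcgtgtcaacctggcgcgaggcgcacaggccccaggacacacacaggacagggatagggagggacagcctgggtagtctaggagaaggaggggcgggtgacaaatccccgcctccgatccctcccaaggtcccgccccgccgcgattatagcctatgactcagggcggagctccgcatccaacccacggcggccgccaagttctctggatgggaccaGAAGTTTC

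GAANNTTC reads the same on both strands. It was found in 5 of 7 windows, or in 5 of the 6 members with a window, since Hspb6 has a pair of annotated start sites and Hspb2 and Cryab have no entry in the sequence table. Of all 32851 windows 7.86% held it, and 9.04% of 27025 genes had at least 1 such window. The opposite pair, TTCNNGAA, was in 0 of the 7 windows and in 8.52% of all windows. Runs of 3 alternating repeats with the same spacing, which contain both pairs, were in 0 of the 7 and in 0.603% of all windows. The matches began 117 and 97 bases before the start site of Hspb1, 120 bases before that of Hspb6 and 224 bases before that of Hspb3. In Hspb8 and Bag3 they began 2 and 42 bases after it. The hexamer CACGTG, the core of the motif that TFEB binds, reads the same on both strands and was in 0 of the 7 windows and in 7.15% of all windows. The Hspb3 window was the 1 of 7 with a match to the consensus of the muscle factor MEF2, which overlaps a TATAAA and which 0.557% of all windows held. These matches describe letters in a window and say nothing about whether a factor binds there.

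Hspb3 was the only member called higher in TFEB-/- cardiomyocytes. Its product is a small heat shock protein of muscle that assembles with HSPB2. The gene (ENSMUSG00000051456, protein coding) has a single exon at GRCm38 chromosome 13, 113662896 to 113663676, minus strand. It stood at 18, 14 and 15 CPM in the TFEB-/- libraries 1 to 3, against 8, 8 and 6 CPM in the WT libraries 1 to 3. The lowest TFEB-/- library lay above the highest WT library. The deposited values are whole numbers, so each is known to within 0.5 CPM. The means were 15.7 ± 2.08 CPM in TFEB-/- and 7.33 ± 1.15 CPM in WT (SD, n = 3 libraries each), a log2 fold change of 1.05 (SE 0.16, 95% confidence interval 0.64 to 1.45, limma adjusted p = 0.0374). The call was lost when any 1 of the 6 libraries was left out, with log2 fold changes of 0.92 to 1.12 and adjusted p of 0.067 to 0.128.

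The other 7 members had positive log2 fold changes of 0.32 to 0.56, and none passed the adjusted threshold of 0.05. Thus 1 of 8 members was called higher, where 3.92% of all tested genes were, and 0 of 8 lower, where 0.523% were. At an unadjusted p below 0.05 in limma, Hspb3 and Hspb6 were higher, 2 of 8 against 21.1% of all tested genes, and 0 of 8 were lower, against 2.3%. The TFEB-/- libraries all lay above the WT libraries in the same 2 of 8 members and in 21.2% of all tested genes. They all lay below in 0 of 8 and in 2.28%. All 8 log2 fold changes were positive, as were 79.8% of those of all tested genes, so a positive direction was common in this table. The median log2 fold change was 0.41 over the 8 members and 0.24 over all tested genes, a gap of 0.17. The gap was 0.063 without TFEB-/- 3, with 7 of 8 members above the median of all tested genes, and 0.28 without TFEB-/- 2.

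**Figure D1:**
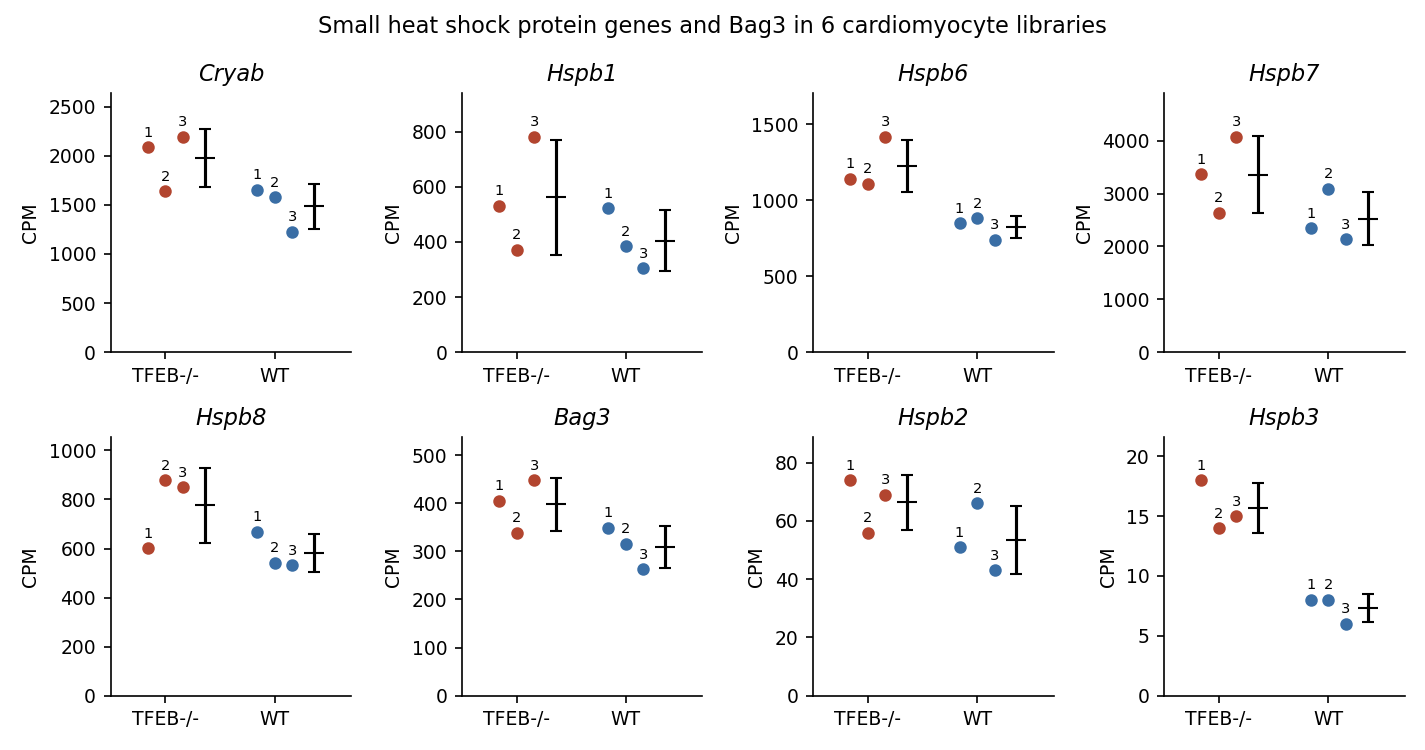
CPM of each member in the 3 TFEB-/- and the 3 WT libraries. Points are libraries numbered by replicate, the black mark and bar are the mean ± SD, and each vertical axis starts at 0. The groups are separate for Hspb3 (14 to 18 against 6 to 8 CPM) and Hspb6 (1107 to 1418 against 740 to 882 CPM) and overlap for the other 6.

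Cryab, Hspb1 and Hspb6 encode the small heat shock proteins best known for protecting heart muscle under stress. Hspb6, or HSP20, is a target of the cyclic nucleotide-dependent kinases. It stood at 1142, 1107 and 1418 CPM in TFEB-/- and at 849, 882 and 740 CPM in WT. The groups did not overlap, with means of 1222 ± 170 and 823.7 ± 74.3 CPM. The log2 fold change was 0.56 (SE 0.13, interval 0.23 to 0.90), and the adjusted p of 0.0881 missed the threshold. Over 16 alternative settings that p ran from 0.0547 to 0.236, and passed in 0.

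Cryab encodes alpha-B-crystallin, which binds desmin and titin and whose mutation causes desmin-related myopathy in humans. It stood at 2088, 1638 and 2195 CPM in TFEB-/- and at 1655, 1579 and 1227 CPM in WT. TFEB-/- 2 fell just under WT 1, and the other TFEB-/- libraries lay above all WT libraries. The log2 fold change was 0.41 (SE 0.17, interval −0.044 to 0.86, adjusted p = 0.243), an interval that holds both no difference and a difference of 0.86.

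Hspb1 encodes HSP25, the mouse counterpart of human HSP27, which is phosphorylated in stress and acts on actin filaments. It stood at 531, 371 and 782 CPM in TFEB-/- and at 523, 385 and 304 CPM in WT. It had the widest spread of the members, with a coefficient of variation of 36.9% in TFEB-/- and 27.4% in WT, where the other 7 had 13.3% to 21.5% and 9.02% to 21.9%. The TFEB-/- libraries alone differed by more than the group means did, as they did in each member other than Hspb3 and Hspb6. Its log2 fold change of 0.44 (SE 0.35, interval −0.46 to 1.35, adjusted p = 0.479) was 0.17 without TFEB-/- 3, 0.26 without WT 3 and 0.71 without TFEB-/- 2.

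Hspb7 and Hspb2 belong to the muscle-restricted branch of the family, with Hspb3. Hspb7, the cardiovascular small heat shock protein, binds filamin C. It stood at 3363, 2635 and 4077 CPM in TFEB-/- and at 2342, 3093 and 2135 CPM in WT. WT 2 lay above TFEB-/- 2, and the log2 fold change was 0.41 (SE 0.22, interval −0.17 to 0.99, adjusted p = 0.317).

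Hspb2 stood at 74, 56 and 69 CPM in TFEB-/- and at 51, 66 and 43 CPM in WT, again with WT 2 above TFEB-/- 2. Its log2 fold change of 0.32 was the smallest of the 8 (SE 0.20, interval −0.19 to 0.84, adjusted p = 0.364). Hspb2 and Cryab are neighbours on chromosome 9 and are transcribed away from each other (GRCm38, Hspb2 at 50751078 to 50752354 on the minus strand, Cryab at 50751325 to 50756636 on the plus strand). Their annotated spans overlap by 1030 bases, because 1 of the 6 Cryab transcripts starts within Hspb2 and shares 252 exon bases with it. The libraries were stranded, but whether strand was used in counting is not given in the sources used here, so reads of the shared stretch cannot be placed. Hspb2 amounted to 3.54, 3.42 and 3.14% of the CPM of Cryab in the TFEB-/- libraries and to 3.08, 4.18 and 3.50% in the WT libraries. The means were 3.37 ± 0.205% and 3.59 ± 0.554%, with a two-sided p of 0.7 by exact permutation, where 0.1 is the smallest p that 3 against 3 libraries allow.

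Bag3 and Hspb8 encode the partners of chaperone-assisted selective autophagy. Bag3, whose mutations cause dilated cardiomyopathy in humans, stood at 405, 339 and 448 CPM in TFEB-/- and at 349, 316 and 263 CPM in WT. TFEB-/- 2 lay between WT 1 and WT 2, and the log2 fold change was 0.36 (SE 0.16, interval −0.044 to 0.77, adjusted p = 0.248). Hspb8 stood at 601, 879 and 851 CPM in TFEB-/- and at 669, 543 and 533 CPM in WT. Here TFEB-/- 1 was the low library of its group, below WT 1. The log2 fold change was 0.40 (SE 0.19, interval −0.086 to 0.90, adjusted p = 0.257).

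The proportion of the 2 partners varied between libraries. The ratio of Hspb8 to Bag3, in CPM as deposited, was 1.48, 2.59 and 1.90 in TFEB-/- and 1.92, 1.72 and 2.03 in WT. The TFEB-/- libraries held both the lowest and the highest ratio, with means of 1.99 ± 0.56 and 1.89 ± 0.156 (exact two-sided permutation p = 0.9).

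**Figure D2:**
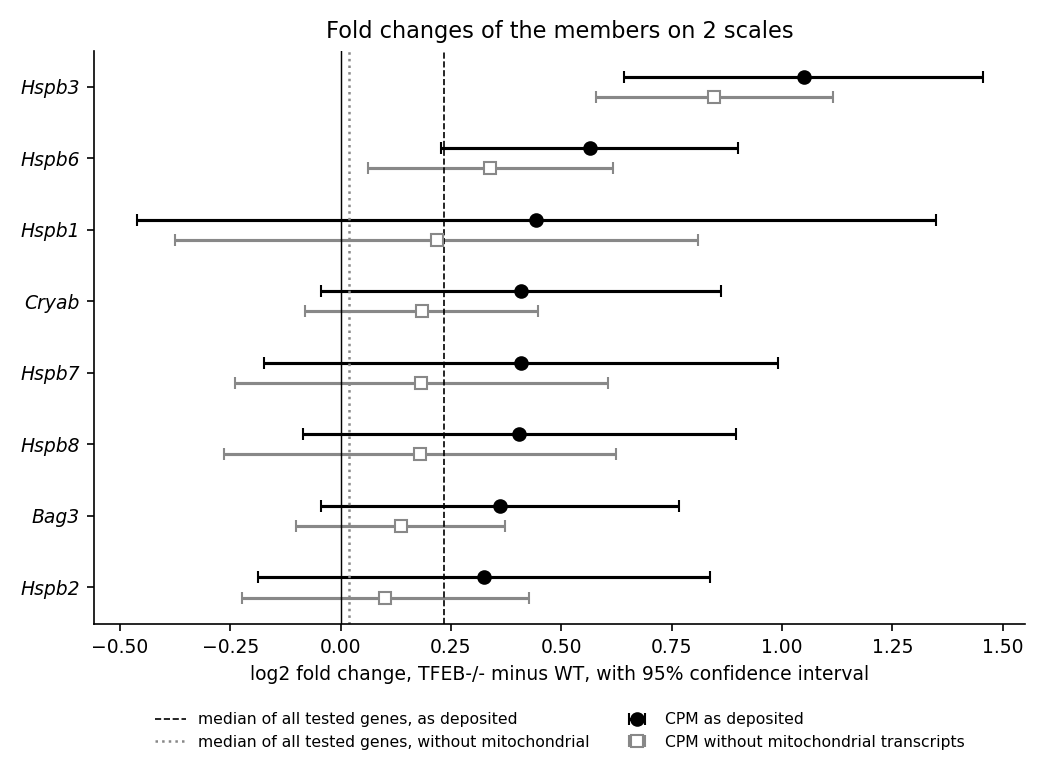
Log2 fold changes of the 8 members with 95% confidence intervals from limma, on the deposited CPM (black circles) and on CPM recomputed without mitochondrial transcripts (open grey squares). The dashed and dotted lines are the medians of all tested genes on the 2 scales, 0.24 and 0.019. Hspb3 lies farthest to the right on both, at 1.05 and 0.85.

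The sizes of these differences depended on how libraries were scaled. Transcripts of the mitochondrial genome made up 22.2 to 30.3% of the TFEB-/- libraries and 30.7 to 44.6% of the WT libraries, and CPM shares out a fixed total. When CPM was recomputed over the remaining transcripts, the median of all tested genes was 0.019, and the log2 fold changes of the 7 members other than Hspb3 were 0.10 to 0.34. All 8 lay above that median. Hspb3 passed the threshold here too, 1 of 8 members against 3.7% of tested genes, at 23.2, 20.1 and 20.1 CPM in TFEB-/- and 11.6, 12.1 and 10.8 CPM in WT (log2 fold change 0.85, adjusted p = 0.0121). With median-ratio scaling it passed as well, 1 of 8 against 3.87% (log2 fold change 0.82, adjusted p = 0.0138). Without mitochondrial transcripts the groups of Hspb6 lay apart, with 1469 to 1899 CPM in TFEB-/- and 1226 to 1337 CPM in WT, but was not called (log2 fold change 0.34, adjusted p = 0.155). On this scale Cryab stood at 2658 ± 295 CPM in TFEB-/- and 2333 ± 99.8 CPM in WT, and Bag3 at 536 ± 58.2 CPM in TFEB-/- and 486 ± 15.8 CPM in WT, with groups that overlapped. The 2 of 8 members without overlap compare with 14.2% of tested genes on this scale.

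The members differed widely in level. Per kilobase of annotated exon, Cryab had 1334 ± 200 CPM in TFEB-/- and 1005 ± 154 CPM in WT, and Hspb7 had 1213 ± 260 and 911 ± 182 CPM. The ranges of these 2 overlapped in either group. Within libraries, Cryab lay above Hspb7 in each but WT 2 (1068 against 1117 CPM per kilobase), and narrowly in TFEB-/- 3 (1484 against 1472). Hspb1 followed at 544 ± 201 and 392 ± 107 CPM per kilobase, Hspb6 at 532 ± 74.1 and 358 ± 32.3, and Hspb8 at 398 ± 78.5 and 298 ± 38.9. Hspb1 overlapped both Hspb6 and Hspb8 in either group, and Hspb6 lay above Hspb8 within each of the 6 libraries. Bag3 had 155 ± 21.4 and 121 ± 16.9, Hspb2 79.5 ± 11.1 and 63.9 ± 14, and Hspb3 20.1 ± 2.67 and 9.39 ± 1.48 CPM per kilobase. These 3 steps down exceeded the spread between libraries in both groups. With the longest coding transcript as the length, Hspb6 moved above Hspb1, to 897 ± 125 and 604 ± 54.5 CPM per kilobase. The order of the others stayed. Whether the deposited values were already scaled by length is not given, and if they were, this division would repeat that scaling. In CPM not divided by length, Hspb7 led at 3358 CPM in TFEB-/- and 2523 CPM in WT. Cryab followed at 1974 and 1487 CPM, and Hspb3 was again lowest. Hspb3, the called member, was thus the scarcest, at 0.187% of the summed CPM of the 8 in TFEB-/- and 0.118% in WT, while Hspb7 and Cryab together held most of it. The 8 summed to 8222, 7039 and 9855 CPM in TFEB-/- and to 6446, 6872 and 5251 CPM in WT.

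**Figure D3:**
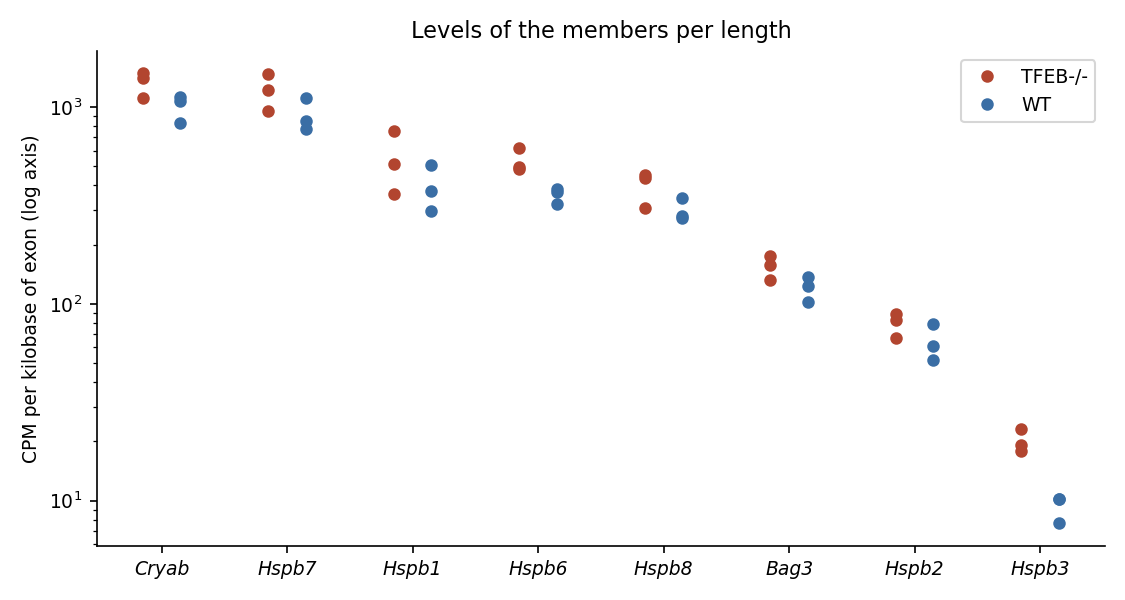
CPM per kilobase of annotated exon on a log axis, with a point per library, TFEB-/- in red on the left and WT in blue on the right of each gene. Levels run from Cryab (means of 1334 and 1005) down to Hspb3 (20.1 and 9.39). Whether the deposited values were already scaled by length is not given.

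Single libraries stood out across the members. WT 3 was the lowest of all 6 libraries in 8 of 8 members, and in 41.6% of all tested genes, and it had the largest mitochondrial share, 44.6%. Without mitochondrial transcripts it was the lowest in 3 of 8 members, against 12.2% of tested genes. Within TFEB-/-, library 2 was the lowest in 7 of 8 members, against 39.0% of tested genes, with Hspb8 as the exception, in which it was the highest. Without mitochondrial transcripts it was the lowest of its group in 5 of 8, against 31.3%. TFEB-/- 3 was the highest of all 6 libraries in 5 of 8 members and in 8.68% of tested genes, and still in 5 of 8 without mitochondrial transcripts, against 9.16%.

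Immediate-early genes, which respond to tissue dissociation among other stimuli, were uneven over the same libraries. The 22 genes of that list summed to 7779, 3585 and 8312 CPM in TFEB-/- and to 5669, 4762 and 4445 CPM in WT. TFEB-/- 2, in which 7 members were lowest of their group, also had the lowest sum of the 6, and TFEB-/- 3 had the highest. The inducible HSP70 genes Hspa1a and Hspa1b are near-identical copies whose reads may be split between them. Hspa1a stood at 173, 71 and 294 CPM in TFEB-/- and at 182, 87 and 88 CPM in WT. Its 3 highest libraries, TFEB-/- 1, TFEB-/- 3 and WT 1, were also the 3 highest for Hspb1. The part of the isolation stimulus in the values of the members was not tested.

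**Figure D4:**
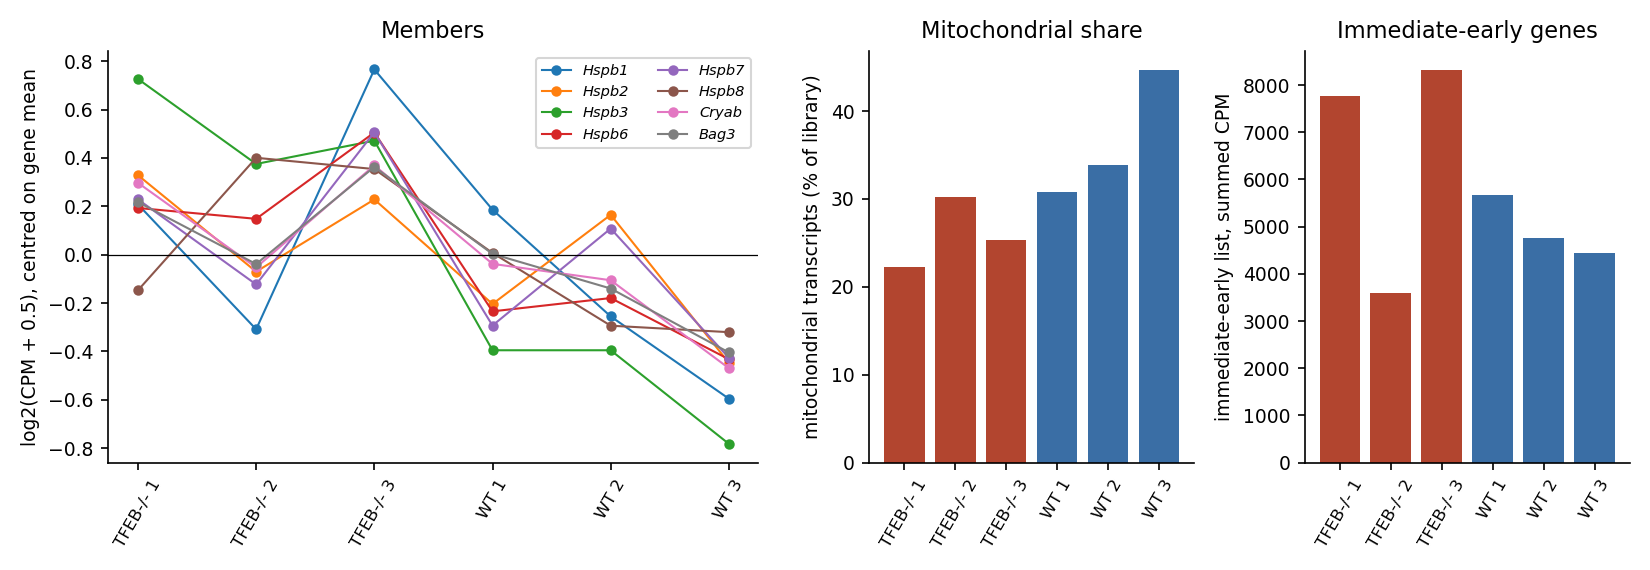
Left, log2(CPM + 0.5) of each member centred on its own mean over the 6 libraries, with TFEB-/- libraries to the left of WT. Middle and right, the mitochondrial share and the summed CPM of the immediate-early list in the same libraries. All 8 members are lowest in WT 3, where the mitochondrial share is 44.6%, and 7 of 8 dip in TFEB-/- 2, where the immediate-early sum is 3585 CPM.

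Among the members, Bag3 and Cryab had the closest profiles. Likeness was measured as the root mean square difference between log2(CPM + 0.5) values over the 6 libraries, each gene centred on its own mean. For this pair it was 0.0478. Of the 2013 non-member genes that averaged 50 CPM or more, 0 lay closer to Bag3. The 5 closest of these to Bag3 were Rbm24, Ldhb, Tns1, Optn and Ensa, at 0.0499 to 0.0678. Those closest to Cryab were Ldhb, Furin, Srp68, Pygm and Fxr2, at 0.0454 to 0.0624. Hspb3 followed a different course, and its 5 closest genes, at 0.0828 to 0.126, were Pgm5, Usp20, Ccnd3, Hk1 and Pcbp4. Pgm5 stood at 188, 148 and 163 CPM in TFEB-/- and at 87, 75 and 67 CPM in WT (log2 fold change 1.12, adjusted p = 0.0224). A group difference like that of Hspb3 follows from how Pgm5 was picked, so its call is no separate result. Pgm5 no longer passed without TFEB-/- 1, TFEB-/- 3, WT 2 or WT 3 (adjusted p = 0.0643 to 0.0986).

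Genes that act with the members were read from lists. Of 12 partners of BAG3 in chaperone-assisted autophagy 0 were called, with a median log2 fold change of 0.35 against 0.24 for all tested genes, and with 4 of 12 whose TFEB-/- libraries all lay above WT, beside 21.2% of all tested genes. Without mitochondrial transcripts 2 of 12 lay above and 1 below, beside 14.2% of tested genes above and 2044 of 12424 below. The most abundant were Hspa8, the constitutive HSP70, at 1187 ± 370 and 1103 ± 171 CPM, and filamin C, Flnc, the client of BAG3, at 799.3 ± 190 and 494.3 ± 192 CPM. Flnc had a log2 fold change of 0.73 (adjusted p = 0.254), with WT 1 at 714 CPM above TFEB-/- 2 at 605 CPM. The autophagy receptor Sqstm1, picked out after its values were seen, stood at 557, 494 and 677 CPM in TFEB-/- and 311, 360 and 372 CPM in WT. Those groups did not overlap, and the adjusted p was 0.0697 (log2 fold change 0.72). Sqstm1 was called in 2 of 16 alternative settings, a filter of 5 CPM (adjusted p = 0.0343) and robust hyperparameters (adjusted p = 0.0259). Its log2 fold change was 0.48 with median-ratio scaling (adjusted p = 0.177) and 0.49 without mitochondrial transcripts (adjusted p = 0.153).

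Of the other 5 BAG genes 0 were called. Bag6, which acts in membrane protein quality control, was at 228.3 ± 36.3 and 176.3 ± 17.2 CPM, and the HSP70 exchange factor Bag1 at 166 ± 7 and 147.3 ± 29 CPM. Bag2, an inhibitor of the ubiquitin ligase CHIP that was picked out after its values were seen, stood at 69, 60 and 63 CPM in TFEB-/- and 41, 44 and 32 CPM in WT. It did not pass on the deposited scale (log2 fold change 0.72, adjusted p = 0.0655) but was called in 5 of 16 alternative settings, among them CPM without mitochondrial transcripts (log2 fold change 0.50, adjusted p = 0.027).

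Heat shock factors and cytosolic chaperones showed 0 calls in limma on the deposited scale with all 6 libraries. At an unadjusted p below 0.05 in limma, 1 of 4 and 2 of 30 were higher, beside 21.1% of all tested genes. Of 4 tested heat shock factor genes, Hsf1 was at 36.3 ± 3.79 and 32.3 ± 5.51 CPM and the factor-binding protein Hsbp1 at 84 ± 10.1 and 73.3 ± 13 CPM. Hsf4, named after its values were seen, stood at 9, 5 and 5 CPM in TFEB-/- and 3, 3 and 3 CPM in WT, without overlap (log2 fold change 0.91, adjusted p = 0.115). Hsf4 was called with the filter of 5 CPM (adjusted p = 0.0494), with robust hyperparameters (adjusted p = 0.0421) and without TFEB-/- 1 (adjusted p = 0.00231). Without TFEB-/- 1 the rounded values show no spread within either group, so the last p says little. Cytosolic chaperones of the HSP70, HSP90 and HSP110 classes and their co-chaperones numbered 30. On the deposited scale 24 of 30 had positive log2 fold changes, beside 79.8% of all tested genes. With median-ratio scaling 11 of 30 were positive, beside 6303 of 12437 tested genes. On either scale 11 lay above the median of all tested genes. The list median on the deposited scale was 0.20, beside 0.24 for all tested genes and 0.41 for the members. Hsp90ab1, the constitutive HSP90, was at 1314 ± 135 and 1142 ± 247 CPM. The HSF1 target Dnajb1, picked out after its values were seen, had 261, 94 and 178 CPM in TFEB-/- and 106, 60 and 83 CPM in WT, with groups that overlapped (log2 fold change 1.01, SE 0.44, adjusted p = 0.254). Of the other genes listed with the small heat shock proteins, Cryaa, Hspb9 and Odf1 were at 0 in all 6 libraries. Hspb11, listed for its symbol alone, stood at 5, 5 and 4 CPM in TFEB-/- and 3, 4 and 3 CPM in WT.

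Of 15 ER chaperones and of 12 mitochondrial chaperones and proteases 0 were called on the deposited scale, with medians of 0.052 and 0.23. Hspa5, the ER HSP70, was at 433 ± 38.7 and 493 ± 212 CPM, and Hspa9, the mitochondrial HSP70, at 590.3 ± 10.5 and 520.7 ± 63.9 CPM. Calr, an ER lectin chaperone, was at 239.7 ± 45.5 and 224.7 ± 52.5 CPM, and the mitochondrial chaperonin Hspd1 at 303 ± 9.64 and 299 ± 38.2 CPM. Of 22 tested Z-disc, desmin and filamin genes 0 were called and the median was 0.21. Without mitochondrial transcripts, the ER disulfide isomerase P4hb was called higher (log2 fold change 0.43, adjusted p = 0.0232), 1 of 15 beside 3.7% of tested genes. The ER list had a median of −0.16 on that scale, beside 0.019 for all tested genes. With median-ratio scaling P4hb was again called higher, and Canx of the same list lower (log2 fold change −0.46, adjusted p = 0.0437). The Z-disc genes Myot (log2 fold change −0.80, adjusted p = 0.0381) and Nexn (log2 fold change −0.47, adjusted p = 0.024) were called lower without mitochondrial transcripts. They were 2 of 22, beside 188 of 12424 tested genes. Desmin, Des, the filament protein that alpha-B-crystallin binds, stood at 2595, 2343 and 3003 CPM in TFEB-/- and 1686, 1898 and 1536 CPM in WT, without overlap (log2 fold change 0.63, adjusted p = 0.0742). The Z-disc crosslinker Actn2 was at 2438 ± 322 and 1858 ± 238 CPM. In the immediate-early list 0 of 22 genes were called, and its most abundant genes, Egr1 and Fos, were at 983.7 ± 346 and 811.7 ± 98 CPM and at 982 ± 396 and 655.7 ± 94.9 CPM.

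**Figure D5:**
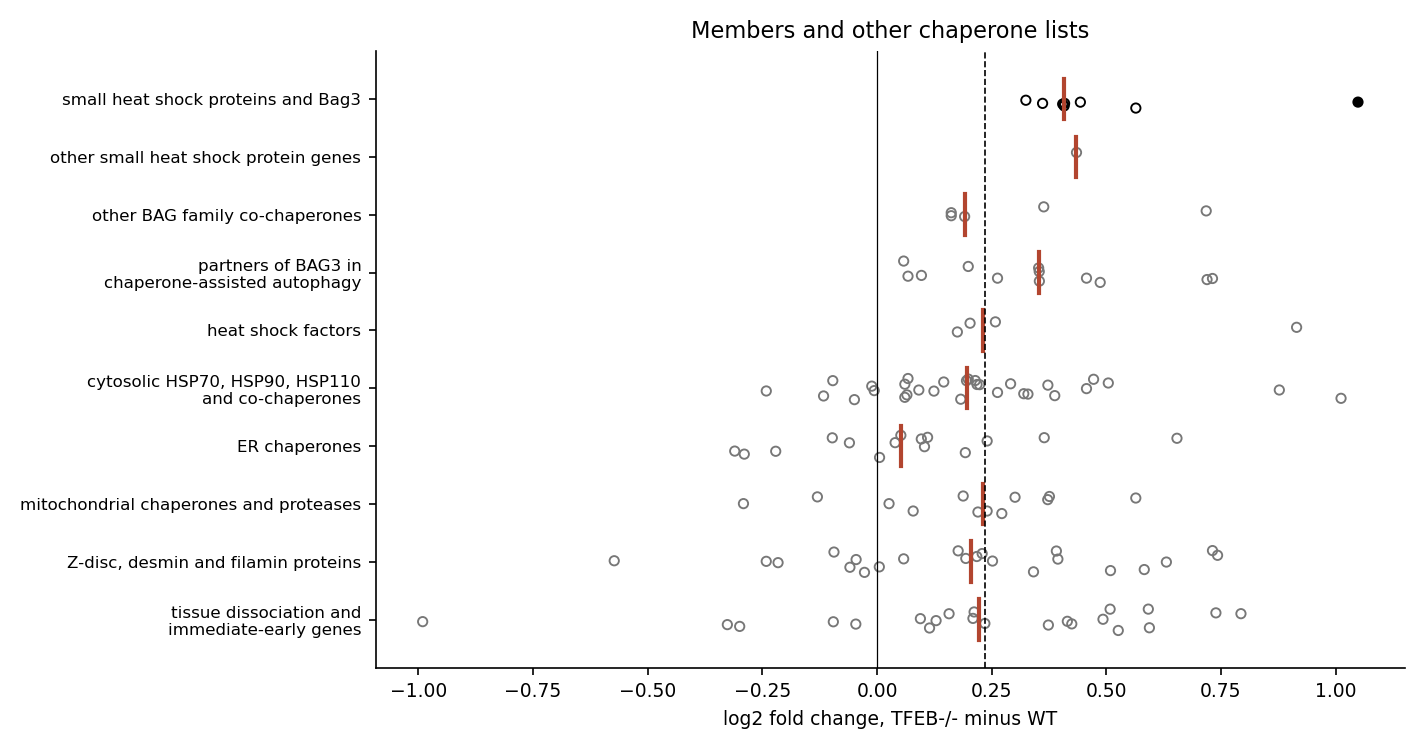
Log2 fold changes of the tested genes of each list, with a point per gene and filled points past an adjusted p of 0.05. Red bars are list medians, and the dashed line is the median of all tested genes, 0.24. Marker lists of other cell types are not plotted. The members have a median of 0.41, and Hspb3 is the filled point.

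The libraries matched their labels for genotype and cell type. Tfeb stood at 6, 5 and 7 CPM in TFEB-/- and at 17, 30 and 23 CPM in WT (log2 fold change −1.85, adjusted p = 0.0267). Tfeb still passed without WT 1, and not when any 1 of the other 5 libraries was left out (adjusted p = 0.0589 to 0.109). The table gives a value per gene, so remaining reads outside the deleted part cannot be told from intact transcript. Cardiomyocyte markers (10 of 10 detected) summed to 79349 to 100538 CPM in TFEB-/- and 67732 to 91435 CPM in WT. Endothelial markers summed to 288 to 319 and 286 to 397 CPM. Of these 0 were called, the median log2 fold change was −0.15, and 1 of 10 was positive, beside 79.8% of all tested genes. Without mitochondrial transcripts the TFEB-/- libraries all lay below WT in 4 of 10, beside 2044 of 12424 tested genes, and above in 0. Fibroblast markers summed to 125 to 172 and 111 to 133 CPM. Erythroid markers summed to 6 to 10 and 5 to 35 CPM, and adipocyte markers to 1 to 4 and 0 to 2 CPM. Among marker genes Pdgfra, of fibroblasts, was called, at 3 CPM in each TFEB-/- and 2 CPM in each WT library. These whole numbers show no spread within a group, which can come from rounding, so the call says little. Settings in which Pdgfra did not pass included CPM without mitochondrial transcripts (adjusted p = 0.319), median-ratio scaling (adjusted p = 0.336), quantile normalization (adjusted p = 0.168) and robust hyperparameters (adjusted p = 0.164). Leukocyte markers summed to 35 to 41 CPM in TFEB-/- and 18 to 27 CPM in WT, with Ptprc, Cd79a and S100a8 at 0 throughout. Of the leukocyte list, Lyz2 stood at 14, 20 and 16 CPM in TFEB-/- and 6, 7 and 9 CPM in WT (log2 fold change 1.13, adjusted p = 0.0544), and was called with the filter of 5 CPM (adjusted p = 0.00992) and with robust hyperparameters (adjusted p = 0.00767). Adgre1, also of that list, was called only when WT 3 was left out (log2 fold change 1.58, adjusted p = 1.01e-05). Near the floor, whole numbers can lack spread through rounding, so that p says little. Smooth muscle and pericyte markers summed to 2901 to 3557 CPM in TFEB-/- and 1910 to 2303 CPM in WT. Their median log2 fold change was 0.021 over 10 genes, below the 0.24 of all tested genes. Positive log2 fold changes were found in 5 of 10, beside 79.8% of all tested genes. Without mitochondrial transcripts 4 of 10 were positive, beside 6499 of 12424 tested genes. On that scale the groups lay apart in 2 higher and 1 lower, beside 14.2% higher and 2044 of 12424 lower among tested genes. Des, which cardiomyocytes share, made up most of the sum. Acta2 of that list, smooth muscle actin, stood at 161, 233 and 185 CPM in TFEB-/- and 66, 118 and 70 CPM in WT, without overlap (log2 fold change 1.22, adjusted p = 0.0876). Acta2 was called with the filter of 5 CPM (adjusted p = 0.0153) and with robust hyperparameters (adjusted p = 0.0114). Small heat shock proteins are also made by smooth muscle and endothelium, and in bulk samples a change in the share of cells and a change in RNA per cell cannot be told apart. The part of the endothelial, leukocyte and smooth muscle markers in the values of the members was not tested.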

How the data were processed

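RNA of isolated mouse cardiomyocytes was sequenced from 3 TFEB-/- and 3 WT libraries, made from 400 ng of total RNA with a stranded poly(A) kit per the labels' protocols. The authors deposited a single table of whole numbers, here treated as a rounded score in CPM, made with kallisto per the name of the table. Libraries sum to 999505 to 999655, so the values are not read counts, read depth is unknown, and no counting interval can be given. Scaling by length is not given in the sources used here. The submitters' processing notes also name GRCm38, STAR, HISAT2, Salmon, RSEM, StringTie, DESeq2 and edgeR, without roles.

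Gene names turned into dates (26) were restored by gene ID, missing names (303) were replaced by the ID, and values sharing a symbol were summed. Genes reaching 1 CPM in 3 or more libraries were tested by limma 3.58.1 in R 4.3.3 on log2(CPM + 0.5), with genotype as the only term and a mean-variance trend (two-sided, Benjamini-Hochberg over all 12437 tested genes, threshold 0.05). The fit was also run on data simulated with independent noise and known changes. That simulation held no shift between libraries, so it does not vouch for the calls here. The added 0.5 CPM makes fold changes of low genes smaller. Ratios were compared by exact permutation. Levels per length used the union of GENCODE exons.

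The members and the gene lists were chosen with earlier results of these data known. Named genes are the members, Tfeb, the called genes of each list or otherwise its 2 most abundant, and the 5 genes with the profile closest to Bag3, to Cryab and to the member with the largest change. Sqstm1, Bag2, Dnajb1, Hspa1a, Hspa1b, P4hb, Canx, Myot, Nexn, Hsf4, Lyz2, Adgre1, Acta2 and Pdgfra were named after their values were seen. Alternatives covered the pseudocount, the filter, the scaling, the variance model, a replicate block and leaving out each library.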

Additional observations from a re-analysis of the deposited data

How the results depend on the processing

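Of the 16 alternative settings, Hspb3 was called in 9. The number of members called higher was 0 with the replicate block and 0 to 0 when each library was left out in turn, and 1 otherwise. The number called lower was 0 throughout. All 8 log2 fold changes stayed positive under all 16 settings, with Hspb3 between 0.82 and 1.12 and adjusted p between 0.00699 and 0.128. Leaving out libraries 1 at a time gave 248 to 516 genes called higher over the whole table. The count was 780 with robust hyperparameters and 159 with the replicate block, against 487 as deposited. Genes called lower numbered 200 with median-ratio scaling, 188 without mitochondrial transcripts, 172 with quantile normalization and 26 with the replicate block, against 65. With the replicate number as a block, Hspb3 kept a log2 fold change of 1.05 at an adjusted p of 0.0997. Same-numbered libraries had deviations that correlated at 0.144, −0.0492 and 0.0883 over tested genes, and different-numbered libraries at −0.184 to 0.104. With 3 libraries per group these values cannot decide whether the numbers pair animals. No pairing is given in the sources used here, and the main fit left the number out. Groups did not overlap in 7 of 8 members without TFEB-/- 2, in 5 without WT 1 and in 4 without WT 2, beside 33.9%, 37.3% and 27.2% of all tested genes in those settings, and in 2 as deposited, beside 21.2%. Rounding limits Hspb3 most, since 0.5 CPM is a visible part of its 6 to 8 CPM in WT.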
